A study of Mus musculus with 80 samples.

Results

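Clu encodes clusterin, also called apolipoprotein J, a secreted glycoprotein that acts as a chaperone outside the cell. Clu is 1 of the 21825 gene symbols in the bulk tables and 1 of the 21901 genes in the scRNA-seq matrices, and it was followed here through 24 bulk and 4 scRNA-seq libraries of the 80 samples of the series. The gene was chosen because its level differed between young and old HSCs and across CD150 levels, so its values in these comparisons are given as a description, with no test. The values of transplanted cells were not used to choose it, although earlier results of these data were known, and Clu was tested there.

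Clusterin binds misfolded proteins in body fluids and keeps them soluble, and it blocks the assembly of the terminal complement complex on cell membranes. Cells take it up, with its cargo, through receptors of the LDL receptor family. Platelets carry it in their granules, and megakaryocytes, the cells that release platelets, express the gene. The gene responds to stress in many tissues and is among those known to be higher in aged mouse HSCs.

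The study asked whether CD150 (the surface protein encoded by Slamf1) separates better from worse functioning HSCs in old mice. HSCs of C57BL/6 male mice were sorted from bone marrow as LSK cells (Lin- with Sca-1 and c-Kit) that had CD150 but neither CD48 nor CD34, young at 2 to 3 months and old at 22 to 24 months by the study's methods text, and a supplementary list gives wider age ranges. Old HSCs of 3 mice were divided by CD150 staining into 4 bins, from G1 (lowest) to G4 (highest), and each mouse gave 1 library per bin. Old CD150low and CD150high HSCs, which carry CD45.2, were also transplanted into lethally irradiated young CD45.1 mice together with helper marrow depleted of Sca-1+ cells, and donor HSCs were taken back on day 4 for bulk RNA-seq or donor LSK cells on day 14 for scRNA-seq.

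Each of the 8 bulk groups had 3 libraries, made from full-length cDNA, and each of the 4 scRNA-seq groups had 1. No genotype other than the CD45 allele is given, and no treatment other than irradiation and transplantation. Apart from G1 to G4, the labels do not say whether the libraries of a group came from separate animals, so p-values may measure technical spread. The FPKM of a library (fragments scaled by transcript length and library size) summed to between 549860.6 and 723258.7, and read totals are unknown. Summed HSC marker genes (7 genes, Procr and Mecom among them) lay between 818.9 and 1656 FPKM in the 24 libraries, lower on day 4 than in the CD150 bins. The 6 T cell genes summed to 2.818 to 13.44 FPKM and the 6 B cell genes to 19.15 to 67.82 FPKM. Neutrophil genes reached 97.3 FPKM in the CD150 bins, and erythroid genes 671.5 FPKM in replicate 1 of old HSCs, against 57.61 and 101.5 FPKM in the other old libraries. That library held 164.4 FPKM of Clu, the lowest of the 3, and the part of these cells in its value was not tested. Clu lies on chr14:65968483-65981547 on the plus strand (GRCm38, GENCODE M21), has 9 annotated transcripts, and no other gene with a row in the tables overlaps it.

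Clu was low in young HSCs, higher in each successive CD150 bin of old HSCs, and lower again in donor HSCs 4 days after transplantation. In young HSCs the 3 libraries held 22.60, 17.88 and 25.49 FPKM of Clu. In unsorted old HSCs they held 164.4, 203.6 and 209.5 FPKM. The groups did not overlap, and the mean was 8.75-fold higher in old than in young HSCs (192.5 ± 24.5 against 21.99 ± 3.84 FPKM, SD, n = 3 each). In bulk samples, a larger share of cells with Clu and more Clu RNA per cell cannot be told apart.

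Within old HSCs, the 3 mice held 106.1, 80.61 and 77.20 FPKM of Clu in G1 and 152.2, 110.3 and 135.4 in G2. In G3 they held 230.7, 181.0 and 222.2 FPKM, and in G4 294.7, 283.0 and 256.4. Clu was higher at each of the 3 steps in each of the 3 mice, and no bin overlapped the next. From G1 to G4 the level was 2.78-fold higher in mouse 1, 3.51-fold in mouse 2 and 3.32-fold in mouse 3, with group means of 87.97 ± 15.8 and 278.1 ± 19.6 FPKM (SD, n = 3 each). The steps were 1.51-fold, 1.59-fold and 1.32-fold. The mean over the 4 bins, 177.5 FPKM, was 92.2% of the mean of the unsorted old HSCs.

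**Figure D1:**
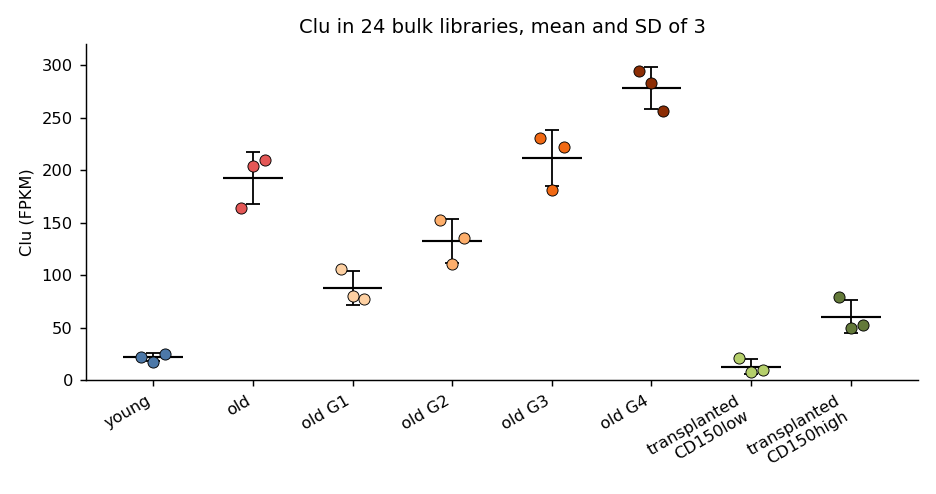
Clu level (FPKM, linear axis) in the 24 bulk libraries, by group, with each library as a point, the group mean as a horizontal line and its SD (n = 3) as an error bar. The young libraries lie between 17.88 and 25.49 FPKM, the 4 bins climb without overlap to 256.4 or more in G4, and the CD150low libraries of day 4 lie between 8.298 and 21.13.

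The bin with the lowest CD150 was not at the young level. G1 held 4-fold more Clu than young HSCs, with no overlap, while Slamf1 in G1 was 1.07-fold that of young HSCs. Slamf1 was 29.4, 29.23 and 15.21 FPKM in the G1 libraries and 17.46, 24.11 and 27.2 FPKM in the young ones, so the G1 libraries lay on both sides of the young range. In G4, Clu was 12.6-fold and Slamf1 3.93-fold above the young mean. Between G4 and G1, Clu differed 3.16-fold and Slamf1, whose protein the cells were sorted on, 3.66-fold.

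**Figure D2:**
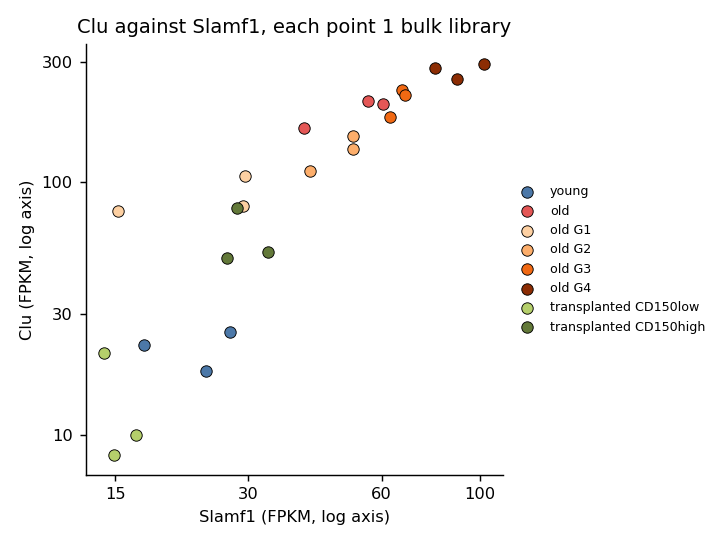
Clu against Slamf1 (both FPKM, log axes) in the 24 bulk libraries, colored by group. The G1 libraries lie just outside the Slamf1 range of the young libraries, 1 below and 2 above it, at 77.20 to 106.1 FPKM of Clu where the young libraries hold 17.88 to 25.49.

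After transplantation both CD150 groups held far less Clu than the fresh old HSCs, and the difference between them remained in direction. Donor HSCs from CD150high cells held 78.96, 49.99 and 53.03 FPKM of Clu on day 4. Those from CD150low cells held 21.13, 8.298 and 9.978 FPKM. The groups did not overlap, and Clu was 4.62-fold higher in CD150high (60.66 ± 15.9 against 13.13 ± 6.97 FPKM, SD, n = 3 each), with 2.37-fold between the nearest and 9.51-fold between the farthest libraries. Slamf1 was 1.93-fold higher.

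In limma on log2(FPKM + 1), the CD150high minus CD150low difference of Clu was 2.20 (SE 0.314, 95% interval 1.51 to 2.90), with an unadjusted p of 2.47e-05. This was the lowest p of the 11077 genes tested and the 4th largest positive difference, but after Benjamini-Hochberg adjustment over all genes the limma p was 0.186, and Clu did not pass. No gene did: 0% of the genes were called at an adjusted p under 0.05 and a fold above 2, while 826 genes (7.46%) had an unadjusted limma p under 0.05. The groups did not overlap for 13.2% of the genes tested. The exact two-sided permutation test of the 3 against 3 values gave p = 0.1, the smallest that the 20 arrangements allow. The call depended on the libraries and on the model. With replicate 1 of CD150low, the library with 21.13 FPKM, left out, the difference was 2.58 and the adjusted limma p 0.00479. With all libraries and the replicate numbers as a block, the adjusted limma p was 0.0105, but the labels do not say that these numbers pair. Over all alternatives run, the adjusted limma p lay between 0.00479 and 0.559.

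Against the fresh bins the fall was larger than the spread between libraries. The CD150low group lay at 0.149 of the mean of G1 and the CD150high group at 0.218 of the mean of G4, without overlap in either case. Taken over both transplanted groups against the mean of G1 and G4, the log2 difference of Clu was -2.48 (SE 0.197, 95% interval -2.90 to -2.05), with a Benjamini-Hochberg adjusted limma p of 3.76e-07 among 11894 genes. The median gene of this comparison lay at -0.20. The fresh side is made of libraries whose values were used to choose Clu, so this p is not independent of that choice. Slamf1 stood at 0.621 of G1 and 0.327 of G4. The gates for the transplanted cells are not stated to be those of G1 and G4, and transplantation, time in the recipient and separate library preparation cannot be told apart.

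On day 4, the CD150low donor HSCs overlapped young HSCs in Clu, at 0.597 of the young mean, and the CD150high donor HSCs lay 2.76-fold above it without overlap. In order of mean level, the groups ran CD150low at day 4, young, CD150high at day 4, G1, G2, unsorted old, G3 and G4. The neighbours that overlapped in this order were CD150low and young, CD150high and G1, and unsorted old and G3.

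Markers of HSCs and of other cells moved with transplantation too. The 7 HSC genes summed to 1279 to 1656 FPKM in G1 and G4. On day 4 they summed to 837.1 to 1006 FPKM in CD150high and 818.9 to 1052 FPKM in CD150low. In limma 4 of the 7 fell against the fresh bins and 0 rose, where 1627 of 11894 genes fell and 832 rose. Their median log2 difference was -1.28, against -0.20 for all genes. The summed FPKM of 10 macrophage genes lay between 4.097 and 8.012 in the G1 and G4 libraries. In the day 4 libraries of CD150high it was 292.4, 110 and 317.7, and in those of CD150low 373.8, 179.9 and 48.95. In limma 9 of the 10 genes rose against the fresh bins, where 832 of 11894 genes rose. Between CD150high and CD150low, whose sums overlapped, 0 of 10 passed, as did 0 of all 11077 genes tested. The 7 cell division genes all rose after transplantation, with sums of 811.3 to 1061 FPKM in CD150high and 848.7 to 1177 in CD150low. The sum of 8 megakaryocyte genes was 435.6, 361.9 and 343.2 FPKM in CD150high and 321.7, 293.2 and 282.9 in CD150low, so it did not overlap, in the direction of Clu, though 0 of 8 genes passed. The sum of 6 genes of lymphoid-primed progenitors did not overlap either, in the other direction, with 23.12, 24.44 and 33.85 FPKM in CD150high and 59.45, 111.8 and 73.95 FPKM in CD150low, and 0 of the 3 tested passed. Erythroid genes summed to 27.72 to 99.15 FPKM in G1 and G4 and to 424 to 724.9 FPKM after transplantation, where CD150high and CD150low overlapped. Stroma genes reached 12 and 33.29 FPKM in replicates 1 and 2 of CD150low and at most 2.156 FPKM in CD150high. The part of these cells, and of the lower HSC markers, in the Clu values was not tested.

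The other genes of the clusterin pathway were described from lists of its receptors, partners and regulators. In old against young HSCs, 412 of the 11279 genes tested (3.65%) were called, 217 higher and 195 lower. In G4 against G1 it was 15 of 11673 genes (0.129%), and in the transplanted against the fresh groups 2459 of 11894 (20.7%), 832 higher and 1627 lower. The last of these comparisons shares its G1 and G4 libraries with the one before it.

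Of 8 receptors and receptor partners of clusterin, 4 were expressed enough to be tested in old against young HSCs, and Vldlr, which takes up lipoproteins and binds clusterin, was the only one to pass there. It rose from 2.371 to 7.061 FPKM (log2 difference 1.26, SE 0.245, adjusted limma p 0.0114). After transplantation Vldlr fell from 12.49 to 2.331 FPKM (log2 difference -2.05, adjusted limma p 4.88e-05). Trem2, a receptor of myeloid cells, was listed at 0 in G1 and G4 and rose to a mean of 4.032 FPKM after transplantation (adjusted limma p 0.00112), beside the macrophage markers above. Lrp8, which binds clusterin and reelin, held 6.603 FPKM in young and 5.349 FPKM in old HSCs. Between CD150high and CD150low donor HSCs, the groups did not overlap for 1 of the 8, Vldlr, where they did not for 13.2% of all genes tested. Vldlr held 1.082 against 3.58 FPKM, the other way from Clu, and did not pass (log2 difference -1.21, SE 0.373, adjusted limma p 0.518).

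Of 7 apolipoproteins and extracellular chaperones, Apoe, the lipid carrier most abundant here, was tested in every comparison. It held 786 FPKM in young and 1329 FPKM in old HSCs (log2 difference 0.75, adjusted limma p 0.000936), which is under the 2-fold limit for a call. After transplantation Apoe fell from 1074 ± 198 to 465.7 ± 210 FPKM (SD, log2 difference -1.31, adjusted limma p 1.32e-05). A2m was listed at 0 in young and old HSCs.

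Of the terminal complement components, which clusterin inhibits, C6, C7, C8a, C8b and C9 each had means under 1 FPKM in young and old HSCs. C7 ran from 0.006795 to 0.133 FPKM in the young and from 0.3166 to 1.266 FPKM in the old libraries, too low to be tested. C8g held 10.93 FPKM in young and 7.887 FPKM in old HSCs. Among the membrane regulators, Cr1l held 128.6 and 125.3 FPKM, and Cd55 29.59 and 47.23 FPKM (adjusted limma p 0.0162, under 2-fold). None of the 7 to 9 complement genes tested (of 14) was called in any of the 4 comparisons, nor was any of the 6 to 7 apoptosis genes tested (of 7), such as Bax, which intracellular clusterin is known to bind.

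The 12 factors described as acting on Clu transcription were all tested. None was called in old against young, G4 against G1 or CD150high against CD150low. After transplantation 5 fell and 1 rose. Jun fell from 153.6 to 8.828 FPKM (log2 difference -4.02, adjusted limma p 2.86e-07), Junb from 247.9 to 18.83 and Fos from 46.38 to 5.086. These encode subunits of AP-1 and are known as immediate early genes. Unsorted old HSCs, not part of this comparison, held 25.84 FPKM of Jun, 72.24 of Junb and 8.811 of Fos, less than G1 and G4 did. Fos in them (3.085 to 12.93 FPKM) overlapped the transplanted libraries (0.3989 to 11.1 FPKM), while Jun and Junb did not. The size of these falls thus depends on which fresh libraries are taken. Mybl2, a factor of dividing cells, rose from 1.224 to 10.01 FPKM (log2 difference 2.40, adjusted limma p 1.04e-05), together with the cell division genes above. A list of 10 genes held chaperones of the secretory pathway, through which clusterin leaves the cell, and the stress response transcription factors Xbp1 and Ddit3. The called genes were Ddit3 (58.42 to 21.05 FPKM) and the chaperone gene Dnajb9 (20.35 to 9.602 FPKM), both lower after transplantation.

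Platelet granule genes did not move together with age. Selp, the adhesion receptor P-selectin, rose from 2.251 FPKM in young to 43.48 FPKM in old HSCs (log2 difference 3.78, adjusted limma p 2.47e-06). Vwf, which tethers platelets, rose from 21.38 to 55.55 FPKM. Pf4, a granule chemokine, fell from 434.6 to 107.3 FPKM (log2 difference -1.99, adjusted limma p 7.39e-05), and Ppbp fell as well, from 14.34 to 5.232 FPKM. In G4 against G1, Vwf was the granule gene called, with 33.8 and 82.04 FPKM (log2 difference 1.25, adjusted limma p 0.0274). After transplantation 3 fell, among them Mmrn1 from 252.9 to 40.35 FPKM, and 2 rose, Sparc and Fn1.

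The 13 aging genes that the study names were chosen by the study on these samples, so their direction with age is not independent evidence. All 13 were called higher with age. Their median log2 difference was 2.48, against 3.08 for Clu. In G4 against G1, 5 of 13 were called higher, with a median of 1.05 against 1.66 for Clu. Sbspon, which encodes a secreted thrombospondin-type protein, was the farthest apart there, with 9.279 and 83.3 FPKM (log2 difference 3.11, adjusted limma p 0.000171).

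Between CD150high and CD150low donor HSCs, 0 of the 12 aging genes tested was called, and the median log2 difference was 0.85, against 0.01 for all genes and 2.20 for Clu. Vwf held 49.93 and 18.63 FPKM (log2 difference 1.36, SE 0.215, adjusted limma p 0.221), Cavin2 28.22 and 10.46 (1.32) and Sbspon 2.47 and 0.339 (1.31). Of the 12, these and Mt1, Ehd3, Enpp5 and Slamf1 did not overlap between the groups, where 13.2% of all genes did not, and all 7 were higher in CD150high. Against the fresh bins, 11 of 13 fell, with a median of -2.15. Gpr183, a receptor for oxysterols, fell from 54.57 to 0.2788 FPKM (log2 difference -5.38), and Sbspon by 3.77 on the log2 scale.

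The 6 genes with the group profile nearest to that of Clu were sought among 12092 genes, by the root mean square difference of centered log2(FPKM + 1) over the 8 group means. They were Tc2n (0.351, Pearson r 0.974), Gstm2 (0.355, r 0.996), Ehd3 (0.378, r 0.982), Cavin2 (0.476, r 0.962), Enpp5 (0.498, r 0.961) and Rarb (0.519, r 0.94), while the median gene lay at 1.44. These are descriptions over 8 means of the same libraries. Gstm2, a glutathione S-transferase from a family of similar genes that reads may not tell apart, was also near Clu in level, with 27.9 FPKM in young and 166.2 FPKM in old HSCs. It held 89.22 FPKM in G1 and 221.8 in G4, and 68.54 FPKM in CD150high and 24.75 FPKM in CD150low donor HSCs. Ehd3 acts in endosomal recycling, Cavin2 in caveolae, and Rarb is a retinoic acid receptor. Ehd3, Cavin2 and Enpp5 are also among the aging genes of the study.

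Of the 3 genes with a row on each side of Clu, none had its profile at a comparable level. Gulo, which makes vitamin C and lies 5.2 kb beyond the end of Clu on the other strand (chr14:65986786-66009207), held 0.5432 FPKM in young, 2.112 in old, 0.6192 in G1 and 3.985 in G4, and 0.07004 and 0.07756 in CD150high and CD150low donor HSCs. Its fall after transplantation passed (log2 difference -1.26, adjusted limma p 0.00327), and the comparisons of old with young and G4 with G1 did not. Scara3, 14.5 kb before Clu, and Adam2, 45.8 kb after it, were under 1 FPKM in every group mean. Esco2, a cohesin acetyltransferase of dividing cells 134.5 kb before Clu, went the other way with age, from 12.48 to 3.322 FPKM (log2 difference -1.91, adjusted limma p 0.0339).

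In single cells, Clu was seen in a minority of old HSCs and in fewer young ones. The young library had 1104 cells after filtering and the old one 2758, with median depths of 14501 and 13357 UMIs (counted molecules) per cell. Clu made up 22.3 CPM (UMIs scaled by the total of the library) of the young cells, from 383 UMIs, and 71.5 CPM of the old cells, from 2767 UMIs. With 1 library a group there is no replicate and no test, and the exact 95% Poisson intervals of 20.2 to 24.7 and 68.9 to 74.2 CPM cover counting error only. The ratio was 3.2 (2.88 to 3.57), against 8.75 in the bulk libraries. For Slamf1 the ratio was 0.918 (0.835 to 1.01) in these cells and 2.28 in bulk, so the old library did not hold more Slamf1 than the young one.

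To compare shares of cells, each cell was thinned to 8975 UMIs. At this depth 133 of 1029 young cells (12.9%, exact binomial 95% interval 10.9 to 15.1) and 951 of 2546 old cells (37.4%, 35.5 to 39.3) had a Clu UMI. Before thinning it was 17.2% and 46.8%. No cell class known to lack Clu was at hand in these sorts to set a background share, and free RNA was not modelled. The barcodes left out for few genes or high mitochondrial share, with a median of 761 UMIs in the old library, held 101 CPM of Clu there (85.7 to 118). In the young library they held 16.7 CPM (8.89 to 28.5). Among cells with Clu, the mean was 1.58 UMIs in young and 1.75 in old cells, values that counting only cells with a UMI keeps near 1. Of the old cells, 548 had 1 Clu UMI, 229 had 2 and 174 had 3 or more, up to 18. In the young library it was 95, 14 and 24 cells, up to 7.

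The counts were more uneven among cells than equal levels would give. At the same mean, Poisson counts would put a Clu UMI in 47.9% of old cells against the 37.4% seen, and in 18.5% of young cells against 12.9%. The variance of the count was 1.96 times the mean in old and 2.19 times in young cells. The tenth of old cells with the most Clu held 49.2% of its UMIs.

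**Figure D3:**
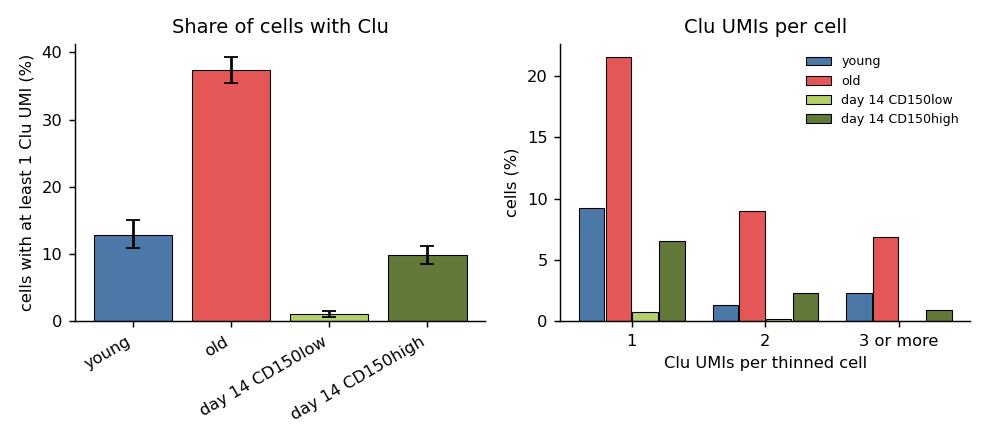
Left, share of cells (percent) with a Clu UMI after thinning each cell to 8975 UMIs, in the 4 scRNA-seq libraries, with exact 95% intervals for counting error; right, share of thinned cells (percent) with 1, 2 or 3 or more Clu UMIs. Old HSCs stand at 37.4% of cells, young HSCs at 12.9%, and the day 14 CD150low library at 1.02%.

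Clu was more often seen in cells in which Slamf1 was seen. In thinned old cells without a Slamf1 UMI, 35.5% (33.4 to 37.7) had Clu, with 41.4% of those with 1 Slamf1 UMI and 48.1% (39.4 to 56.9) of those with 2 or more. The level was 67.8 CPM (64.0 to 71.8) in cells without and 87.2 CPM (79.8 to 95.2) in cells with Slamf1. In young cells it was 19.7 CPM (16.5 to 23.3) and 31.5 CPM (24.8 to 39.5). A Slamf1 count of 0 does not show that a cell lacks Slamf1 at this depth. Both groups of young cells lay below both groups of old cells. At 0, 1 and 2 or more Slamf1 UMIs, 11.5%, 18.1% and 12.7% of young cells had Clu. In the day 14 CD150high library it was 8.76%, 14.8% and 7.75%, so neither share was higher at 2 or more than at 1. The last shares rest on 55 young cells (interval 5.27 to 24.5) and 142 CD150high cells (3.93 to 13.4). In the day 14 CD150low library the shares were 0.799%, 2.23% and 3.17%, the last from 2 of 63 cells (0.387 to 11.0).

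Clu was higher in old cells scored as G1 than in those scored as S phase. The 1865 thinned old cells in G1 of the cell cycle held 78 CPM (73.8 to 82.4), the 639 in S phase 58.8 CPM (52.7 to 65.4) and the 42 in G2/M 50.4 CPM (30.3 to 78.7). In young cells the 3 phases held 23.4, 22.5 and 13.6 CPM, with overlapping intervals.

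Of the 10 genes with the highest level in old cells with Clu relative to cells without, 6 were among the 13 aging genes named above. Of 5729 genes with at least 20 CPM, the ratio of CPM in the 951 cells with Clu to that in the 1595 without had a median of 0.974, with 95% of genes between 0.8 and 1.18. The 10 highest ratios were those of Klrb1c (2.27, interval 1.93 to 2.66), Sbspon (2.02), Sox18 (1.89), Ramp2 (1.87), Cldn5 (1.77), Vwf (1.76), Btg2 (1.65), Jam2 (1.61), Ehd3 (1.59) and Gpr183 (1.51). Klrb1c encodes the natural killer receptor NK1.1, Sox18 a factor of vessel growth, Ramp2 a partner of the adrenomedullin receptor, and Cldn5 and Jam2 proteins of tight junctions. All 13 aging genes lay above 1, from Alcam to Sbspon (2.02), with a median of 1.31, where 36.4% of all genes did. These are ratios over cells of 1 library, with no test. The study picked Ramp2, Ehd3, Gpr183, Jam2 and Slamf1 partly by their correlation with an aging score in its scRNA-seq data. By its text, the genes behind that score include Clu, so the overlap with the aging genes is not independent evidence.

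Of the endothelial marker genes, Emcn (41.6 against 38.4 CPM), Tek (14.9 against 12.7 CPM) and Kdr had slightly higher values in cells with Clu. The ratio of Emcn was 1.08 with an interval that held 1 (0.945 to 1.24), and none was computed for Tek and Kdr. Cldn5 and Sox18, named above, are not on this marker list. Cdh5, the cadherin of endothelium, had 0 UMIs in the thinned old cells, and Flt4 had 4 in cells with Clu and 7 in cells without. The 6 endothelial genes summed to 69.9 CPM in cells with Clu and 62.0 CPM in cells without, nearly all of it Emcn, Tek and Kdr. Kdr, a receptor of endothelial growth factor, held 13 CPM in cells with Clu and 10.3 CPM in cells without. Macrophage genes summed to 13.9 and 11.2 CPM.

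The 5 lowest ratios in old cells were those of Arhgap30 (0.483, interval 0.391 to 0.594), Hells (0.528), Lig1 (0.636), Serpinb1a (0.643) and Arhgef18 (0.646). Hells and Lig1 act in DNA replication. Hells is 1 of the S phase genes scored above. Pf4 (0.683, interval 0.61 to 0.764) and Vldlr (0.69, interval 0.583 to 0.813) were also lower in cells with Clu, opposite to Vwf and Apoe (1.31, interval 1.28 to 1.35). The 7 HSC markers had a median of 1.04, from Hlf (0.849) to Fgd5 (1.15).

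The young library, which had no part in picking these genes, had the same direction for all 15. The 10 genes all lay above 1 in the 133 young cells with Clu, 8 of them with intervals above 1, while 44.4% of 5998 genes lay above 1 and the 95th percentile was 1.29. Cldn5 held 26.0 CPM in young cells with Clu and 3.98 CPM in those without, a ratio of 6.53 (3.85 to 11.0). Ramp2 had a ratio of 5.03 (3.37 to 7.45) and Vwf of 3.61 (2.8 to 4.63), both wider than in old cells. The 5 low genes lay below 1, with 2 intervals below 1. In the young cells too, Cdh5 had 0 UMIs with Clu and 3 without.

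In day 14 cells of CD150high origin, with 188 cells with Clu and 1728 without, 5 of the 10 genes lay above 1 and 3 intervals did, those of Vwf (3.13), Ehd3 (3.1) and Jam2 (1.88). Sbspon, Cldn5 and Gpr183 had 0 UMIs in these 188 cells, and 10 or fewer in the others. The library of CD150low origin had 22 cells with Clu, too few for such ratios.

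**Figure D4:**
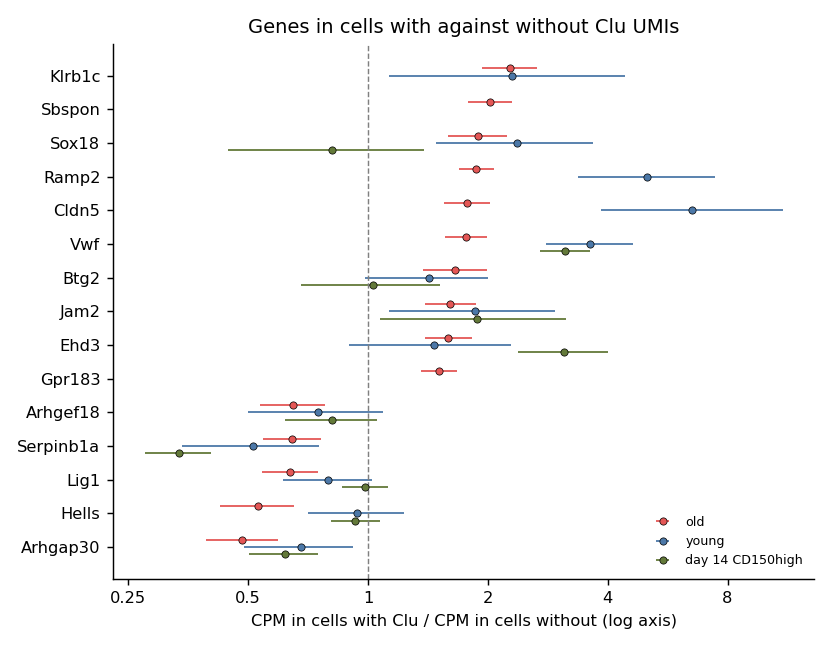
Ratio of CPM in thinned cells with Clu to that in cells without (log axis), with 95% counting intervals, for the 10 highest and 5 lowest genes of old HSCs, in old, young and day 14 CD150high cells, for genes with at least 10 UMIs in the cells with Clu. In the young library Ramp2 (5.03), Cldn5 (6.53) and Vwf (3.61) stand farther from 1 than in the old one.

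On day 14 after transplantation, Clu was nearly absent from donor LSK cells of CD150low origin and present in a minority of those of CD150high origin. There were 2406 and 1933 cells after filtering, with median depths of 19435 and 30651 UMIs. Clu made up 1.36 CPM (1.06 to 1.73, from 69 UMIs) in the CD150low and 15.5 CPM (14.6 to 16.5, from 996 UMIs) in the CD150high library. The ratio was 11.4 (8.92 to 14.8), against 2.12 (1.96 to 2.3) for Slamf1 and 4.62 for Clu in the day 4 bulk libraries, which hold sorted HSCs rather than LSK cells. At 8975 UMIs a cell, 22 of 2165 cells (1.02%, 0.638 to 1.53) and 188 of 1916 cells (9.81%, 8.52 to 11.2) had Clu, and 1.62% and 20.5% before thinning. The CD150high library stood at 0.217 of the Clu level of fresh old HSCs and the CD150low library at 0.0191. The left-out barcodes held 27.5 CPM (23.8 to 31.6) in the CD150high library and 0 UMIs of Clu in the CD150low library (up to 1.58 CPM). With 1 library per group these values compare 2 libraries.

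The day 14 cells formed 8 clusters, made without Clu, and names were rebuilt from marker lists. Cluster 3 was megakaryocyte-like (823 cells, led by Pf4 at 979 CPM and Vwf at 83.9), cluster 4 cell division-like (403 cells, also with 956 CPM of Pf4) and cluster 5 erythroid-like (351 cells, with Car1 at 175 CPM and Pf4 at 903). Cluster 7 was macrophage-like, with 23 cells. The other 4 stayed unnamed: clusters 0 and 2 expressed Flt3 or Cd48 of multipotent progenitors, cluster 1 the stem cell genes Hlf and Ly6a with interferon genes, and cluster 6 Elane and Mcpt8 of neutrophil and basophil precursors.

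In the CD150high library, Clu was highest in the 3 clusters with high Pf4. It held 28.5 CPM (25.8 to 31.3) in cluster 3, 25.1 in cluster 4 and 26.7 in cluster 5. Before thinning, 32.1%, 36.2% and 37.2% of their cells had a Clu UMI, and after thinning 19.3%, 13.8% and 16.2%. In the CD150low library it held 5.65 CPM (3.76 to 8.17), 2.35 and 6.24, with 4.39%, 2.65% and 6.67% of cells. After thinning these shares were 2.96%, 1.83% and 3.36%. Cluster 6, with 67.8 CPM of Pf4, held 9.1 CPM of Clu in the CD150high library (12 of 52 cells, 23.1%). In the CD150low library it held 4.98 CPM (8 of 66 cells, 12.1%, interval 5.38 to 22.5), and its intervals overlapped those of clusters 3 and 5. After thinning the order of cluster 6 was reversed, from few cells, with Clu in 1 of 51 CD150high (1.96%) and 5 of 56 CD150low cells (8.93%). Cluster 0 held 0.268 CPM in the CD150high and 0.137 CPM in the CD150low library, in 0.813% and 0.147% of cells at median depths of 29526 and 20437 UMIs. Apart from the macrophage-like cluster it was the lowest in both libraries. No cluster was set beforehand as lacking Clu, so this is not an independent background. Cluster 1, with the stem cell genes, held 3.39 CPM in the CD150high and 0.459 CPM in the CD150low library.

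Clusters 3 to 5, grouped after their values were seen, held 54.2% of the CD150high cells and 95.3% of that library's Clu UMIs. In the CD150low library they held 22% of the cells and 75.4% of the 69 UMIs. Within cluster 3, Clu was 5.03-fold (3.43 to 7.67) higher in the CD150high library, within cluster 4 10.7-fold (4.85 to 29.4) and within cluster 5 4.29-fold (2.66 to 7.35). Within cluster 1 it was 7.38-fold (2.11 to 39.5), and the intervals of clusters 0, 2 and 6 held 1. The macrophage-like cluster had Clu in 4 of its 16 CD150high cells and in 0 of its 7 CD150low cells, too few to bound a share. When the CD150low clusters were weighted by the cluster shares of the CD150high library, its level went from 1.36 to 2.89 CPM and the ratio from 11.4 to 5.38, and with 16 finer clusters to 3.69.

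**Figure D5:**
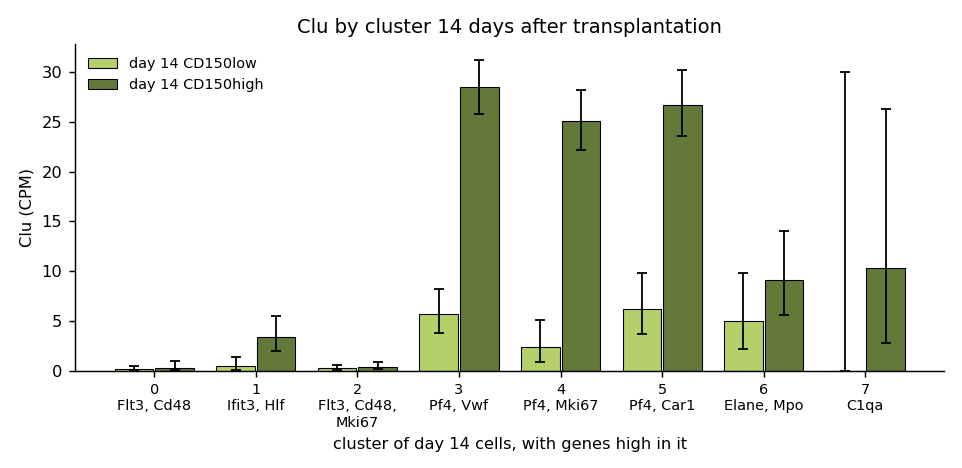
Clu level (CPM) in each of the 8 clusters of day 14 donor cells, by library of origin, with exact 95% Poisson intervals. Clusters 3, 4 and 5 hold 25.1 to 28.5 CPM in the CD150high library and 2.35 to 6.24 CPM in the CD150low library.

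Among the 6065 genes with at least 20 CPM in the day 14 CD150high library, Pf4 had the highest ratio between cells with and without Clu. It was 6.16 (5.9 to 6.43), with 2080 against 337 CPM. Cavin2 followed at 4.2. Mmrn1 (2.98) of platelet granules, Gp9 (2.81) of the platelet receptor for von Willebrand factor and Rap1b (2.79) were among the first 7 of 6065 genes. Of the 5 platelet granule genes with at least 20 CPM, 3 lay above 1. Srgn (0.864, interval 0.824 to 0.905) and Selp (0.941, interval 0.776 to 1.13) lay below it. All 6 megakaryocyte markers tested lay above 1, with a median of 2.8 against 1.01 for all genes. Cd48 (0.116), a gene of multipotent progenitors, lay far below 1. The 5 granulocyte-monocyte markers had a median of 0.341, and the 6 HSC markers tested had a median of 0.612, from Ly6a (0.34), Hlf (0.369) and Procr (0.386) to Meis1 (1.2, interval 1.08 to 1.33), with 2 of 6 above 1. In fresh old HSCs, by contrast, Pf4 lay on the other side of 1, at 0.683, and the difference between these libraries was not tested.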

How the data were processed

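Bulk RNA-seq values were FPKM as deposited by the authors, made from reads that the submitters' processing notes and the methods describe as trimmed with Trim Galore and aligned to mm10 with HISAT2 2.0.0. HTSeq 0.12.4 and Cufflinks are named too, and which of them computed the FPKM is not given in the sources used here. Rows repeating a symbol were summed. scRNA-seq values were raw UMI counts that the authors deposited from Cell Ranger. Kept cells had 800 (fresh) or 2000 (day 14) detected genes or more and up to 5% mitochondrial UMIs. Doublets were counted with Scrublet (scanpy 1.11.5, expected rate 0.06), made up 0.181% to 0.996% of the kept cells per library and were left in, since so few calls may mean that the caller did not work. Libraries shared 1 to 12 barcodes pairwise.

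Genes whose mean reached 1 FPKM in a group of the fit were compared as log2(FPKM + 1) with limma 3.58.1 (R 4.3.3, variance trend, Benjamini-Hochberg), tested on simulated data, and called at an adjusted p under 0.05 and a fold above 2 or below 0.5. Fold changes on this scale understate those of low genes. Groups came from the labels. G1 to G4 share mice by the labels, and correlations of same-mouse deviations ran from -0.432 to 0.488. Shares carry exact Clopper-Pearson and CPM values exact Poisson intervals, for counting error only. Day 14 clusters came from 2000 variable genes, 20 principal components and a Leiden resolution of 0.5.

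Named genes were Clu, Slamf1, up to 3 called members of each list and comparison, members whose role is explained, the 6 nearest profiles, the 10 highest and 5 lowest ratios in old cells, and the 3 neighbours on each side. The genes and lists were chosen with earlier results of these data known. Naming day 14 ratios beyond these lists followed their values. Methylation and chromatin data were not analysed here.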

Additional observations from a re-analysis of the deposited data

How the results depend on the processing

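Clu kept its direction in every alternative run. Its fall after transplantation passed in all of them, with log2 differences from -2.66 to -2.35 when 1 library was left out and from -2.53 to -2.18 otherwise. The fresh side stayed G1 and G4, whose values were used to choose Clu, so passing in all is not independent of that choice. The difference between CD150high and CD150low donor HSCs ranged from 1.95 to 2.58 with 1 library left out, and other settings gave 2.14 to 2.29. With the replicate block it was 2.2 and passed (adjusted limma p 0.0105, 2 genes called), but the labels do not say that the replicate numbers of these groups pair. Deviations of same-numbered libraries had correlations of -0.0757 to -0.00651. These cannot settle the pairing, since libraries known to share a mouse in G1 to G4 ran from -0.432 to 0.488. Why the fit with the block passed was not tested. In G4 against G1, where the numbers mark mice, the block changed the count from 15 to 19 genes, and in old against young from 412 to 419.

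Leaving out 1 library gave 267 to 429 calls for old against young, 2 to 23 for G4 against G1 and 0 to 9 for CD150high against CD150low. The old against young count moved by over 1.5 times without young replicate 1 (267). That of G4 against G1 did so without G1 replicate 1, 2 or 3, G3 replicate 1 or 3, or any G4 replicate, and was lowest without G4 replicate 1. For CD150high against CD150low, 9 genes were called without CD150low replicate 3, and Clu passed without CD150low replicate 1. Without the filter on low genes, which tests more genes, 61 and 7 genes were called in the first pair of comparisons.

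Before thinning, 17.2% of young, 46.8% of old, 1.62% of day 14 CD150low and 20.5% of day 14 CD150high cells had Clu, as deeper cells show more. With no filter on cells, day 14 CD150high held 16.7 CPM. At a Leiden resolution of 1.0 the megakaryocyte-like class held 41.4 CPM in CD150high and 11.4 in CD150low, and the cell division-like class 14.1 and 0.664. Within the megakaryocyte-like class, the cluster led by Pf4 held 70.0 CPM (61.9 to 79.0) in 126 CD150high cells. In 29 CD150low cells it held 38.6 CPM (23.9 to 59.0), with Clu in 7 of them and 30.4% of that library's Clu UMIs. The erythroid-like class held 0.866 and 0.0 CPM, but from 13 and 7 cells, against 231 and 120 cells at 0.5. A cluster of 227 and 119 cells, named megakaryocyte-like at 1.0, held 29.0 and 6.26 CPM, near the 26.7 and 6.24 of cluster 5 at 0.5. The erythroid-like level thus depends on which cells take that name. The macrophage-like class at 1.0 took in more cells, with 3 of the 10 macrophage markers counted as detected in it. It held 12.5 CPM (9.79 to 15.7) in 249 CD150high cells, 47 of them with Clu. In 86 CD150low cells it held 0 Clu UMIs. Splitting old cells by Clu before thinning left 8 of the 10 highest and 1 of the 5 lowest genes in place. Depth limits the values of day 14 CD150low, which rest on 69 UMIs.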
